A study of Homo sapiens with 6 samples.

Results

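The genes described here are 31 that encode enzymes and regulators of cholesterol and fatty acid synthesis. They were listed by name and not by their measured values, though earlier results of these data were known. They were read on 6 Affymetrix U133 Plus 2.0 arrays of 2 human osteosarcoma lines, KHOS and U-2OS, both established lines of a malignant bone tumor. For each line there was 1 array of untransfected cells, 1 of cells given a nonspecific siRNA at 40 nM and 1 of cells given an siRNA against CDK11 at 40 nM. CDK11 is a cyclin-dependent kinase of transcription and RNA splicing, and the study asked which genes respond to its knockdown in these tumor cells. RNA was collected 2 days after transfection, and the RNA of 3 flasks was pooled before each hybridization. The untransfected cells received no siRNA, so the nonspecific siRNA arrays carry the effect of being transfected and of that oligonucleotide together, which cannot be told apart.

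Of the 31 genes, 22 had a probe set of their own whose highest log2 signal over the 6 arrays was above about 6.6, and these 22 stand among 8881 genes measured by the same rule. A further 6 were below that limit by every probe set. FADS1 and CYP51A1 were read only by 5 probe sets that the annotation also assigns to another gene, and FDFT1 had no named probe set in the annotation used here. All values are log2 signals after gcrma normalization, and a difference of 1 is a doubling of signal. Each gene is given by its brightest probe set above the limit. Levels are compared between arrays and never between genes, because each gene is read by other probes.

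Cholesterol is built from acetyl-CoA. The mevalonate steps give isoprenoid units, which are joined to squalene, closed to lanosterol and trimmed to cholesterol. Fatty acids are built from the same precursor by acetyl-CoA carboxylase and fatty acid synthase, then elongated and desaturated. Both sets of genes are known targets of the SREBP transcription factors. These are held in the endoplasmic reticulum by INSIG proteins bound to SCAP when sterols are plentiful, and are carried to the Golgi and cut free when sterols are scarce. The pathway is therefore known for moving as a block. Dividing tumor cells in culture use it for membranes and for the lipid anchors of proteins.

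The arrays were alike in overall signal, with medians of 2.92 to 2.98 and 24.9% to 25.9% of probe sets above the limit. The knockdown was checked with 5 probe sets assigned to CDK11A and CDK11B. All 5 were lower with CDK11 siRNA than in untransfected cells, with log2 differences of -2.05 to -1.58 in KHOS and -3.09 to -0.31 in U-2OS. Of 6 mesenchymal and bone markers, 5 were above the limit and COL1A2 was not, at 2.55 to 2.65. Of 4 epithelial markers, EPCAM alone was above the limit, at 8.81 to 9.0 in KHOS and 5.15 to 5.89 in U-2OS. No blood, liver or fat cell marker was above it.

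With 1 array per condition in a line, no test was possible within a line. The test across lines was limma with line and transfection as terms, in which the 2 lines stand as replicates of a transfection. For a transfection it measures how alike the lines were, and its residual degrees of freedom were 2. The 3 comparisons within a line share arrays. A high untransfected array would lower both siRNA values against it, and the nonspecific siRNA array enters 2 of the comparisons with opposite sign.

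Most of the lipid genes read lower after either siRNA than in untransfected cells, by small amounts. In U-2OS, 19 of 22 were lower with nonspecific siRNA, with a median difference of -0.34, whereas 50.9% of all genes were lower, with a median of -0.0053. With CDK11 siRNA 19 of 22 were again lower in U-2OS, with a median of -0.27, against 48.9% of all genes. In KHOS, 16 of 22 were lower with nonspecific siRNA, with a median of -0.13, and 18 of 22 with CDK11 siRNA, with a median of -0.19. Among all genes 48.0% and 50.1% were lower in these KHOS comparisons. The RNA came from whole cultures, so fewer cells expressing a gene and less RNA per cell cannot be told apart.

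The order of the 3 arrays was counted in each line. The untransfected array was the highest of its line for 15 of the 22 genes in KHOS and for 18 in U-2OS, compared with 33.4% and 35.8% of all genes. In KHOS the CDK11 siRNA array was the lowest for 16 genes, against 38.1% of all genes. In U-2OS the lowest was the nonspecific siRNA array for 11 genes, against 32.8% of all genes, and the CDK11 siRNA array for 9, against 31.2%. Among the 4250 genes of the arrays above the members' median level of 9.08, the share lower was between 46.6% and 50.5% in all 6 comparisons. The part of signal level in the members' counts was not tested.

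**Figure D1:**
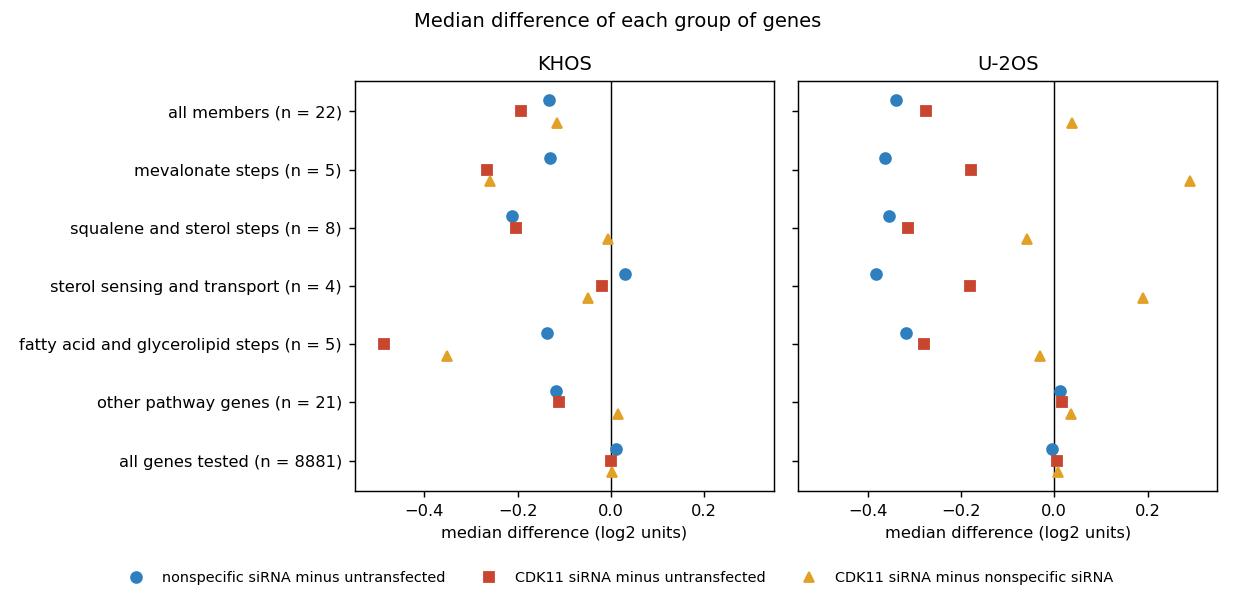
Each point is the median log2 difference of a group of lipid genes in 1 comparison within 1 line, beside the median over all 8881 genes. The all-gene medians lie near 0, and the medians of the 22 genes against untransfected cells lie between -0.34 and -0.13.

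Few of these differences were large, and none passed the test across lines. Lower by over 0.5 with nonspecific siRNA were 0 of 22 genes in KHOS, where 5.08% of all genes were, and 4 in U-2OS, where 7.72% were. With CDK11 siRNA against untransfected cells 4 genes were lower by over 0.5 in each line, against 12.1% of all genes in KHOS and 8.02% in U-2OS. These were 0 to 4 genes of 22, so most of the lower values were smaller than 0.5. Where 4 genes passed, their share of the 22 was above that of all genes, and with nonspecific siRNA in KHOS it was below. By limma, 0 of 22 passed at an adjusted p of 0.05 in any of the 3 transfection comparisons, as did 0% of all genes. The smallest adjusted p among the 22 was 0.584 for nonspecific siRNA against untransfected cells, 0.178 for CDK11 siRNA against untransfected cells and 0.350 for CDK11 against nonspecific siRNA. At an unadjusted p of 0.05 the counts were 1, 5 and 1 of 22, and 752, 1625 and 1206 of all genes.

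Genes lower in both lines were counted next. With nonspecific siRNA 13 of 22 were lower in both lines and 0 were higher in both, where 28.0% of all genes were lower in both. With CDK11 siRNA against untransfected cells 15 were lower in both and 0 higher in both, where 31.7% of all genes were lower in both. No gene of the 22 was lower by over 0.5 in both lines with nonspecific siRNA, compared with 1.34% of all genes, and none was higher, compared with 0.923%. With CDK11 siRNA against untransfected cells SCD alone was lower by over 0.5 in both lines, compared with 3.76% of all genes, and none was higher, compared with 2.76%.

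**Figure D2:**
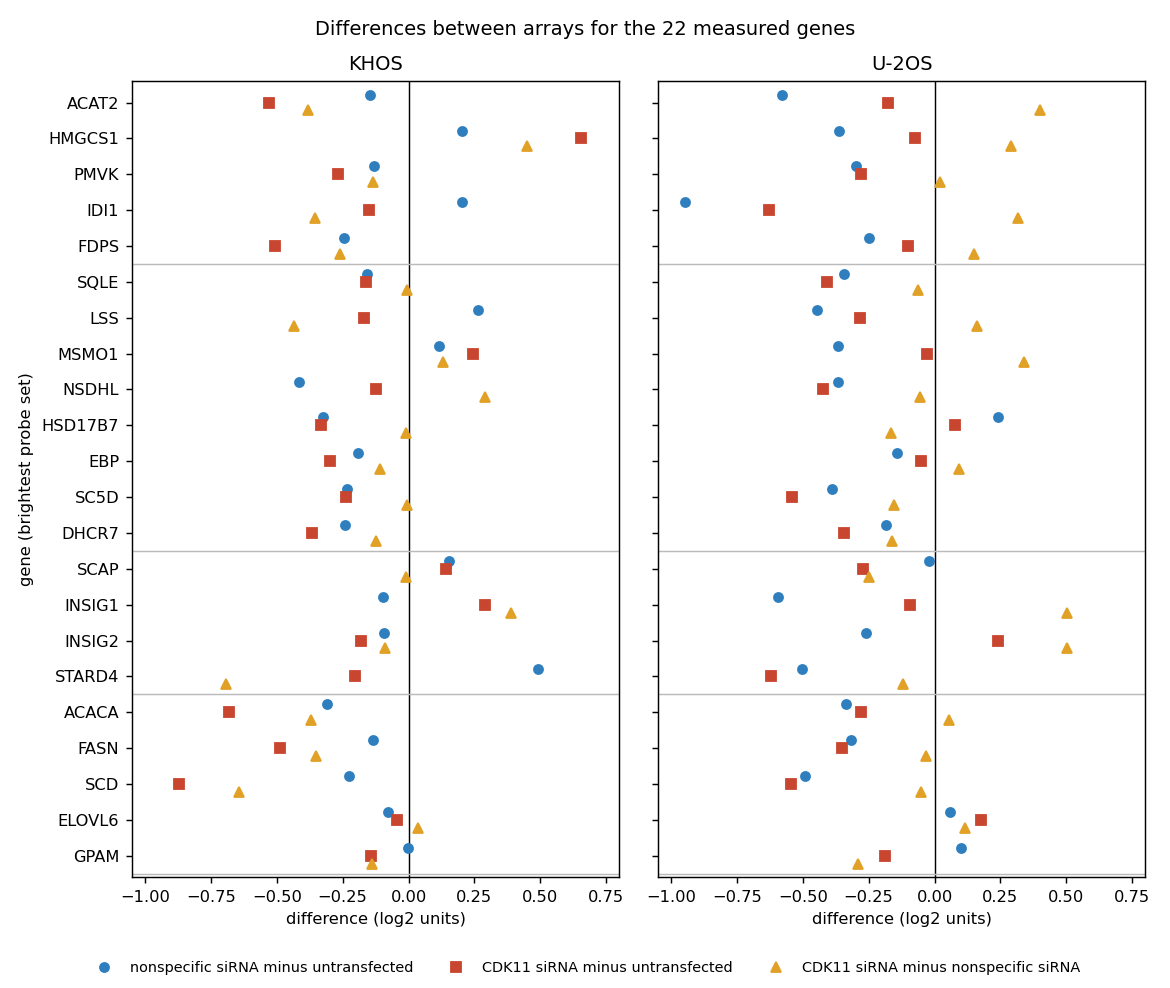
Log2 differences of the 22 genes within KHOS and within U-2OS for the 3 comparisons of arrays, ordered by the role of the gene. Most points of the comparisons with untransfected cells are below 0 in both lines, and the U-2OS comparison of CDK11 with nonspecific siRNA holds 12 genes above 0 and 10 below.

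The naming rule took SCD for its differences, ACACA and IDI1 through their probe sets, and HMGCS1, PMVK, STARD4, IDI1, ACAT2 and ACACA for their differences between lines. The other genes given with values on all 6 arrays, GPAM among them, were chosen after their values were seen. These values run in the order untransfected, nonspecific siRNA, CDK11 siRNA. Among the mevalonate enzymes 5 of 7 were above the limit. By their brightest probe sets all 5 were highest in the untransfected array and lowest in the nonspecific siRNA array in U-2OS. The median difference between these arrays was -0.36, and CDK11 siRNA lay between. The other IDI1 probe set was lowest with CDK11 siRNA there, at 8.11 compared with 8.31 with nonspecific siRNA. In KHOS the corresponding median was -0.13, with 3 of 5 lower.

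IDI1, the isomerase that makes the reactive isoprenoid unit, read 11.40, 11.61 and 11.25 on the KHOS arrays and 9.13, 8.19 and 8.51 on those of U-2OS. In U-2OS its difference with nonspecific siRNA, -0.95, was the lowest of the 22, a signal at 51.9% of that in untransfected cells. In KHOS the same difference was 0.20, and the fit over both lines gave -0.37 ± 0.29 (SE) with an adjusted p of 0.721. The other probe set of IDI1 gave -0.25 in U-2OS, so the size of this difference depended on the probe set.

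HMGCS1, the synthase that condenses acetoacetyl-CoA with acetyl-CoA at the head of the pathway, ran the other way in KHOS. It read 8.71, 8.91 and 9.36 in KHOS and then 10.70, 10.34 and 10.63 in U-2OS. With CDK11 siRNA it was 0.65 above untransfected cells in KHOS, the highest difference of the 22, and in U-2OS the log2 difference was -0.07. Across lines this was 0.29 ± 0.21 (SE) with an adjusted p of 0.487. A dimmer probe set for HMGCS1 was below the limit on all KHOS arrays, at 3.30, 3.91 and 4.54, so its KHOS difference is not used, and in U-2OS it gave 0.26.

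ACAT2, the thiolase that supplies acetoacetyl-CoA, read 10.21, 10.07 and 9.68 in KHOS, with U-2OS at 8.38, 7.80 and 8.20. Its lowest array was thus the CDK11 siRNA array in KHOS and the nonspecific siRNA array in U-2OS. FDPS, which joins isoprenoid units to farnesyl diphosphate, read 10.94, 10.69 and 10.43 on the KHOS arrays and 11.43, 11.19 and 11.34 on those of U-2OS. PMVK, phosphomevalonate kinase, was lower with both siRNAs in both lines, by 0.13 to 0.30. FDPS and PMVK were the mevalonate enzymes whose nonspecific siRNA values were lower in both lines, together with ACAT2.

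Of the 11 genes for squalene and the sterol ring, 8 were above the limit, and most of these were lower with either siRNA in both lines. With nonspecific siRNA 6 of 8 were lower in KHOS, with a median of -0.21, and 7 of 8 in U-2OS, with a median of -0.36. With CDK11 siRNA 7 of 8 were lower than in untransfected cells in each line, with medians of -0.20 and -0.31. Between CDK11 and nonspecific siRNA the medians were -0.0063 and -0.058, with genes on both sides, from -0.43 for LSS to 0.29 for NSDHL in KHOS and from -0.17 for HSD17B7 to 0.34 for MSMO1 in U-2OS.

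SQLE, squalene epoxidase, the enzyme that puts oxygen on squalene, read 11.30, 11.14 and 11.14 in KHOS and then 11.81, 11.47 and 11.40 in U-2OS. Both siRNA arrays were below the untransfected array in both lines, and with nonspecific siRNA the 3 SQLE probe sets gave -0.58 to -0.12 in KHOS and -0.58 to -0.34 in U-2OS. NSDHL, a sterol dehydrogenase of the demethylation steps, read 9.06, 8.65 and 8.94 in KHOS, with U-2OS at 9.01, 8.64 and 8.58. Its difference with nonspecific siRNA was -0.39 ± 0.14 (SE) across lines, with an adjusted p of 0.584, the smallest of the 22 in that comparison. The other NSDHL probe set gave 0.07 in KHOS and -0.34 in U-2OS, so the KHOS sign depended on the probe set.

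The last steps to cholesterol had lower values with both siRNAs in both lines. SC5D, the lathosterol desaturase, read 10.09, 9.86 and 9.86 on the KHOS arrays and 9.72, 9.33 and 9.18 on those of U-2OS. DHCR7, the reductase of the final step, read 7.58, 7.33 and 7.21 in KHOS and then 8.24, 8.06 and 7.89 in U-2OS. For DHCR7 the order was untransfected, nonspecific, CDK11 from high to low in both lines. Against untransfected cells CDK11 siRNA gave -0.39 ± 0.13 (SE) for SC5D and -0.36 ± 0.11 (SE) for DHCR7, with adjusted p of 0.236 and 0.216.

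The other sterol enzymes did not all share that order. EBP, the sterol isomerase, was lower with both siRNAs in both lines, by 0.05 to 0.30. HSD17B7, a sterol ketoreductase, was lower by 0.33 with nonspecific siRNA in KHOS and higher by 0.24 in U-2OS. LSS, which closes squalene epoxide to lanosterol, read 7.28, 7.54 and 7.11 in KHOS, with U-2OS at 7.91, 7.47 and 7.63, so nonspecific siRNA stood highest in one line and lowest in the other. MSMO1, the methylsterol oxidase, read 10.95, 11.07 and 11.20 on the KHOS arrays and 10.94, 10.58 and 10.92 on those of U-2OS.

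**Figure D3:**
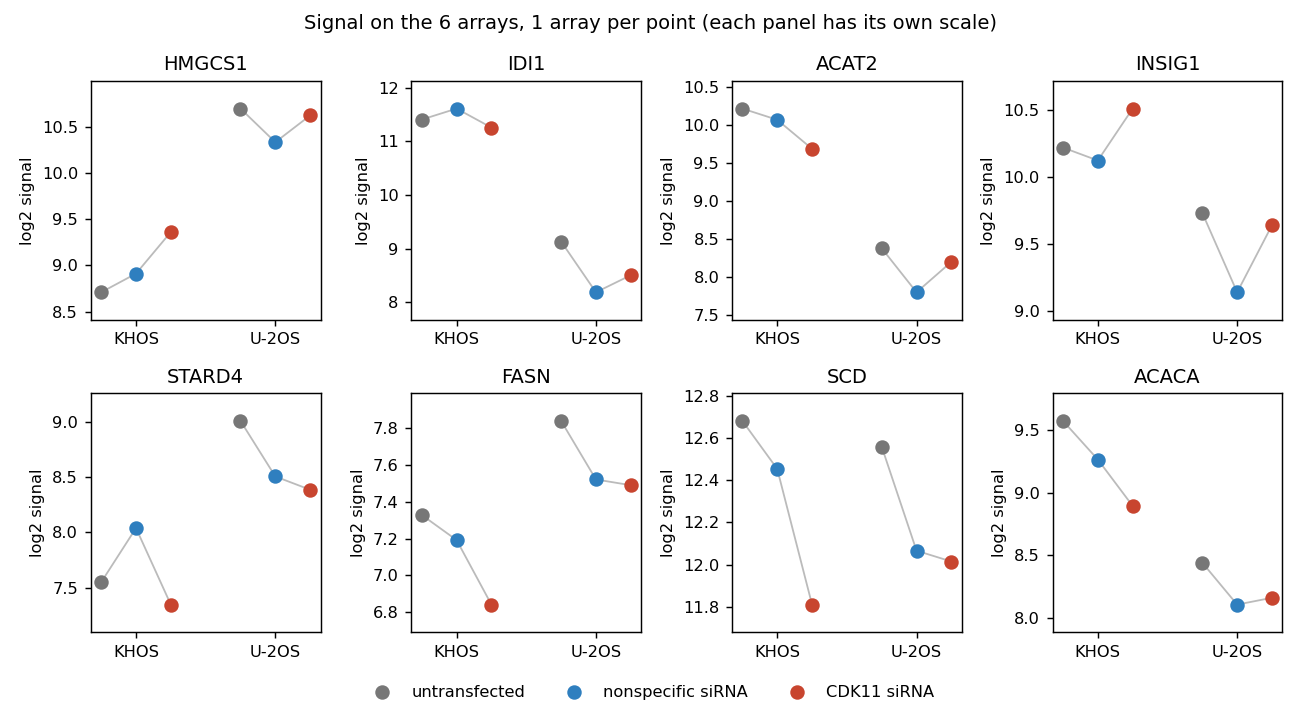
Log2 signal of selected lipid genes on each of the 6 arrays, 1 point per array, joined within a line. SCD is highest in the untransfected array of both lines, at 12.68 in KHOS and 12.56 in U-2OS, and the brightest INSIG1 probe set is lowest with nonspecific siRNA in both, which its second probe set does not show in KHOS.

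The regulators did not move as 1 group. Of 6 genes for sterol sensing and transport 4 were above the limit, and both SREBP genes were below it, with highest signals of 5.95 for SREBF1 and 6.29 for SREBF2. In KHOS 2 of 4 were lower with nonspecific siRNA, with a median of 0.030, and in U-2OS 4 of 4, with a median of -0.38.

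INSIG1 holds SCAP in the endoplasmic reticulum and is itself a target of SREBP. Its levels were 10.22, 10.12 and 10.51 in KHOS and then 9.73, 9.14 and 9.64 in U-2OS. By this brightest probe set the nonspecific siRNA array was the lowest in both lines, by 0.10 in KHOS and by 0.59 in U-2OS below untransfected cells. CDK11 siRNA stood above nonspecific siRNA by 0.39 in KHOS and 0.50 in U-2OS, which was 0.45 ± 0.16 (SE) across lines with an adjusted p of 0.350. A second INSIG1 probe set gave 0.41 and 0.68 for the same differences. By that probe set nonspecific siRNA was not the lowest array in KHOS, where it stood 0.19 above untransfected cells, while in U-2OS it was the lowest, at -0.82.

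INSIG2, the second retention protein, read 7.83, 7.74 and 7.65 in KHOS, with U-2OS at 8.66, 8.40 and 8.90, so CDK11 siRNA was the lowest array in one line and the highest in the other. SCAP, the escort of SREBP, differed from untransfected cells by at most 0.15 in KHOS and was lower by 0.27 with CDK11 siRNA in U-2OS. STARD4, a carrier of cholesterol between membranes, read 7.55, 8.04 and 7.35 on the KHOS arrays and 9.01, 8.50 and 8.38 on those of U-2OS. With nonspecific siRNA it was 0.49 above untransfected cells in KHOS and 0.50 below them in U-2OS, where its signal was 70.6% of theirs.

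Promoter sequence is shown for 3 of these genes, because INSIG1, HMGCS1 and SCD gave 3 different patterns over the same 6 arrays. The sequences are the RefSeq windows (GRCh38.p14) from 250 bases before to 50 bases after the start site, written 5′ to 3′ on the gene's strand. Capitals mark CCAAT or, on the other strand, ATTGG, the letters read by the factor NF-Y, which is known to bind beside SREBP. INSIG1 lies on the plus strand at chr7:155297628-155297927, HMGCS1 on the minus strand at chr5:43313363-43313662 and SCD on the plus strand at chr10:100346983-100347282.
INSIG1: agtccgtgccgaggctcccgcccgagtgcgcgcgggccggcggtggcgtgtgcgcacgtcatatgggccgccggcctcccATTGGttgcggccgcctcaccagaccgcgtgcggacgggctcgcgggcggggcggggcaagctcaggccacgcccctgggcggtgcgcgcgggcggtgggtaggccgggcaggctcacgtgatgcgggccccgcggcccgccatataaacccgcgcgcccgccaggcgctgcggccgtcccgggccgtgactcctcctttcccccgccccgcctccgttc
HMGCS1: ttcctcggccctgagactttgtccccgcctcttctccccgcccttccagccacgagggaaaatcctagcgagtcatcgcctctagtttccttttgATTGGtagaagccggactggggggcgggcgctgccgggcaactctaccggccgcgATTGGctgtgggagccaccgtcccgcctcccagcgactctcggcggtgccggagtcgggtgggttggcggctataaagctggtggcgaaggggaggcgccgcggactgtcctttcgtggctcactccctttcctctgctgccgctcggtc
SCD: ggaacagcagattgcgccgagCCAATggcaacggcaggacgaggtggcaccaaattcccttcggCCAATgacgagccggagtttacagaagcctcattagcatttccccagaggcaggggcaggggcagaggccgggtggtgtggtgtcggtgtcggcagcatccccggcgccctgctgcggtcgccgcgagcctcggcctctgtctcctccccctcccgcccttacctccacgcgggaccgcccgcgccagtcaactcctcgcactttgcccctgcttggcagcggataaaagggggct
INSIG1 held 1 such match, 170 bases before the start, HMGCS1 held 2, at 155 and 100 bases, in the one of its 2 windows with more matches, and SCD held 2, at 229 and 186 bases.

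A window was given for 27 of the 31 genes and, of the 22 above the limit, for 19. CCAAT on either strand was in 20 of the 27 (74.1%), compared with 39.7% of 27305 genes with a window. GGGCGG on either strand, the letters of a GC box, was in 26 of the 27 (96.3%), compared with 48.3%. The longer sterol-element letters TCACNCCAC, on either strand, were in SREBF2 alone among the 27 (3.70%), compared with 1.39% of all genes. These are matches of letters in a fixed window and do not show binding. The 27305 genes were not limited to the 8881 measured here, and the shares among the measured genes were not counted.

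The fatty acid enzymes had the lowest median of the 4 groups of members with CDK11 siRNA in KHOS. Of 7 genes 5 were above the limit. All 5 were highest in the untransfected KHOS array and 4 were lowest in the CDK11 siRNA array. In KHOS the median difference was -0.49 with CDK11 siRNA and -0.14 with nonspecific siRNA. In U-2OS these medians were -0.28 and -0.32. No test of this difference between lines was possible with 1 array per condition.

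SCD encodes stearoyl-CoA desaturase, which puts the first double bond into saturated fatty acids. Its levels were 12.68, 12.45 and 11.81 in KHOS and then 12.56, 12.07 and 12.01 in U-2OS. The untransfected array was the highest and the CDK11 siRNA array the lowest in both lines. CDK11 siRNA left 54.7% of the untransfected signal in KHOS and 68.6% in U-2OS, log2 differences of -0.87 and -0.54. Across lines this was -0.71 ± 0.17 (SE) with an adjusted p of 0.178, the smallest of the 22. Between CDK11 and nonspecific siRNA SCD differed by -0.64 in KHOS but by -0.05 in the other line. A dimmer SCD probe set gave -0.41 and -0.13 for the comparison with untransfected cells, so the mean of both probe sets was not lower by over 0.5 in both lines.

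ACACA, the acetyl-CoA carboxylase that commits carbon to fatty acids, read 9.58, 9.27 and 8.90 in KHOS, with U-2OS at 8.44, 8.11 and 8.16. FASN, fatty acid synthase, read 7.33, 7.19 and 6.84 on the KHOS arrays and 7.84, 7.52 and 7.49 on those of U-2OS. Both were highest untransfected in each line, and in KHOS the nonspecific siRNA array lay between the others for both. CDK11 siRNA against untransfected cells gave -0.48 ± 0.15 (SE) for ACACA and -0.42 ± 0.13 (SE) for FASN across lines, with adjusted p of 0.228 and 0.220.

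ELOVL6, which lengthens palmitate, stood apart from these, with levels between 9.03 and 9.20 on all 6 arrays by its brightest probe set. A second ELOVL6 probe set was less even, from 7.74 to 8.50. With CDK11 siRNA it was above untransfected cells by 0.27 in KHOS and 0.32 in U-2OS. GPAM, which starts glycerolipid synthesis by attaching a fatty acid to glycerol phosphate, depended on the probe set. The brighter one read 8.87, 8.87 and 8.73 in KHOS and then 8.01, 8.11 and 7.82 in U-2OS. The dimmer one read 7.90, 7.71 and 7.14 in KHOS, with U-2OS at 6.85, 6.78 and 4.83. Against untransfected cells CDK11 siRNA in U-2OS was thus -0.19 by one and -2.01 by the other, whose CDK11 siRNA signal lay below the limit.

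**Figure D4:**
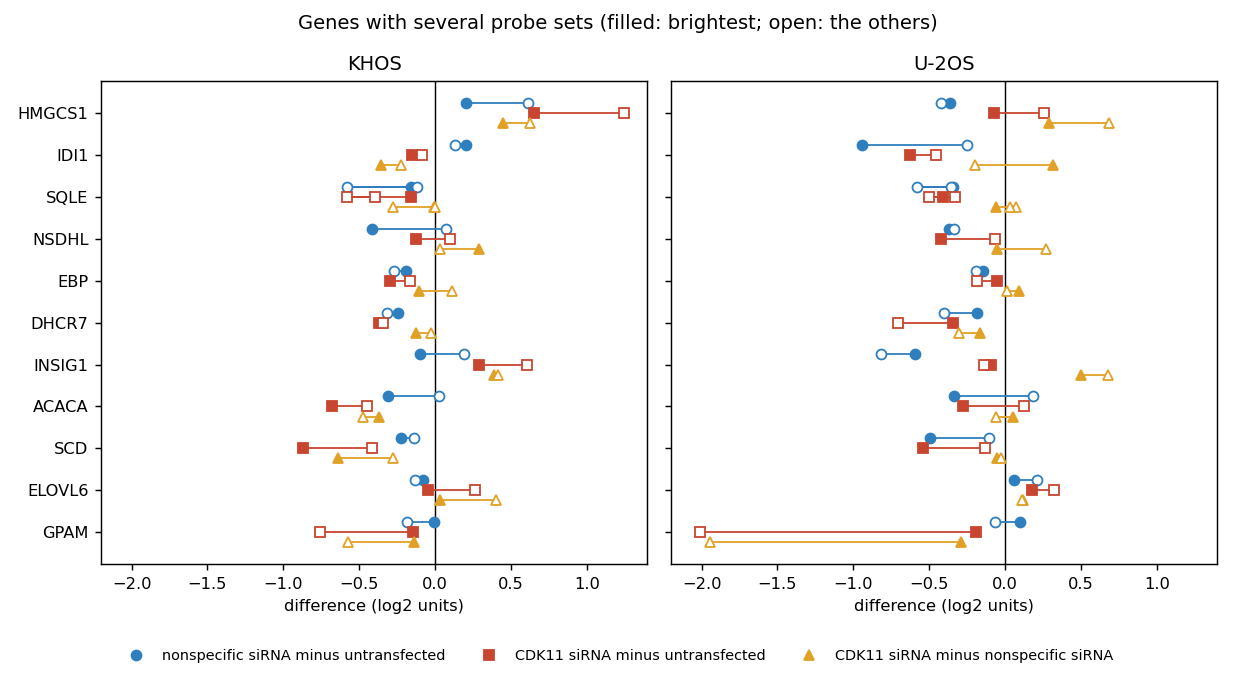
Log2 difference for each probe set of the 11 genes with several probe sets above the limit, by gene, for each comparison in KHOS and in U-2OS. The widest gap within a gene is that of GPAM with CDK11 siRNA in U-2OS, at -2.01 and -0.19.

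The 34 probe sets of the 22 genes, 11 of which had more than 1, were also set against the study's own limit. That limit, 3 standard deviations of all differences between CDK11 and nonspecific siRNA within a line, was passed by 0 of 34 in KHOS, where 1.38% of all probe sets passed. In U-2OS 1 of 34 passed, the dimmer GPAM probe set, and 1.87% of all did. Probe sets of 1 gene differed from each other by over 0.5 for ACACA, GPAM, HMGCS1 and IDI1, of which the HMGCS1 gap lay in KHOS, where its dimmer probe set was below the limit. They disagreed in sign by that much for 2 genes. ACACA with nonspecific siRNA in U-2OS was -0.33 by one probe set and 0.18 by the other, which read 6.51 to 6.70 there, close to the limit, and IDI1 between CDK11 and nonspecific siRNA in U-2OS was 0.32 and -0.20.

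The effect of CDK11 siRNA beyond that of a nonspecific siRNA was read from the arrays of those transfections. In KHOS 17 of 22 genes were lower with CDK11 siRNA, with a median of -0.12, where 49.6% of all genes were lower. In U-2OS 10 were lower and 12 higher, with a median of 0.037, where 48.2% of all genes were lower. Lower by over 0.5 were STARD4 and SCD in KHOS, against 9.93% of all genes, and none in U-2OS, against 5.19%. INSIG1 and INSIG2 were higher by over 0.5 in U-2OS, against 5.71% of all genes. Over both lines 9 genes were lower in each, 4 were higher in each and 9 had opposite signs (40.9%), where 35.7% of all genes had opposite signs. No gene of the 22 passed that size in both lines, compared with 2.60% of all genes lower and 2.14% higher.

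With CDK11 against nonspecific siRNA 4 of the 5 mevalonate enzymes had opposite signs in the lines, where 35.7% of all genes did. By the brightest probe sets 4 of 5 were lower in KHOS, with a median of -0.26, where 49.6% of all genes were lower. In U-2OS 5 of 5 were higher, with a median of 0.29, where 48.2% of all genes were lower. PMVK was higher by only 0.02 there, and the other IDI1 probe set was lower, at -0.20. By the brightest probe sets the nonspecific siRNA array was the lowest of its line for all 5 in U-2OS. These values and those against untransfected cells thus rest on the same array. Only HMGCS1 of the 5 was higher in both lines, by 0.45 and 0.29, which was 0.37 ± 0.21 (SE) across lines with an adjusted p of 0.492.

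The genes read through shared probe sets are given apart from the counts. The 3 probe sets assigned to both MIR1908 and FADS1, a fatty acid desaturase, were lower with CDK11 siRNA than in untransfected cells by 0.55 to 0.78 in KHOS and by 0.24 to 0.42 in U-2OS. The brightest read 10.35, 10.24 and 9.57 on the KHOS arrays and 9.61, 8.96 and 9.37 on those of U-2OS. By this probe set CDK11 siRNA differed from nonspecific siRNA by -0.67 in KHOS. In U-2OS nonspecific siRNA differed from untransfected cells by -0.65, and CDK11 siRNA stood 0.41 above nonspecific siRNA. The other probe sets gave 0.17 and 0.02 for that last difference. The 2 probe sets assigned to both LRRD1 and CYP51A1, the sterol demethylase, were lower with nonspecific siRNA, by 0.11 to 0.38. With CDK11 siRNA they were within 0.07 of untransfected cells in both lines.

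The 6 genes below the limit had 13 probe sets, and no difference is given for them. Their highest signals were 5.60 for MVK and 2.46 for MVD, kinase and decarboxylase of the mevalonate steps, 2.49 for TM7SF2, a sterol reductase, and 4.89 for FADS2, a fatty acid desaturase, beside the SREBP genes. A signal below the limit is not evidence that a gene was silent.

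Most of the genes differed between the lines, as most genes of the arrays did. By limma 14 of 22 genes differed between U-2OS and KHOS at an adjusted p of 0.05, 8 higher and 6 lower in U-2OS, beside 71.7% of all genes. In this comparison the 3 arrays of a line, each of another condition, stood as its replicates. No condition was repeated within a line, so these p-values and SE do not measure the spread between repeated cultures of a line. The levels of the lines did not overlap over their 3 arrays for 17 of the 22, of which 10 were higher in U-2OS and 7 in KHOS, beside 73.9% of all genes. Both shares were near those of all genes.

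The highest difference was that of HMGCS1, 1.56 ± 0.17 (SE) log2 higher in U-2OS, with an adjusted p of 0.0011 by limma. PMVK at 1.28 and STARD4 at 0.99 followed. Toward KHOS the difference was largest for IDI1, at -2.81 ± 0.23 (SE) with an adjusted p of 0.000479, then ACAT2 at -1.86 and ACACA at -1.01. Within the mevalonate steps all 5 genes passed, 3 higher in U-2OS and 2 in KHOS. Among all genes 71.7% passed, 2960 higher in U-2OS and 3404 in KHOS. SCD did not pass, at -0.10 with an adjusted p of 0.548.

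Genes around the pathway were read from a second list of 31, of which 21 were above the limit. It holds the SREBP proteases, suppliers of acetyl-CoA and citrate, elongation and activation enzymes, isoprenoid branches and oxysterol targets. With nonspecific siRNA 14 of 21 were lower in KHOS and 10 in U-2OS, with medians of -0.12 and 0.011. Among all genes 48.0% and 50.9% were lower. With CDK11 siRNA 13 and 10 were lower than in untransfected cells, with medians of -0.11 and 0.017, where 50.1% and 48.9% of all genes were. None passed limma in the 3 transfection comparisons, as did 0% of all genes, and the smallest adjusted p were 0.545, 0.126 and 0.283. At an unadjusted p of 0.05 by limma the counts were 1, 4 and 1 of 21, and 752, 1625 and 1206 of all 8881 genes.

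MYLIP, a ubiquitin ligase induced by oxysterol receptors, was the one of these higher by over 0.5 in both lines with CDK11 siRNA. That was against untransfected cells, where 2.76% of all genes were higher by that size in both lines. Its levels, of which the lowest was just under the limit, were 7.05, 7.86 and 8.25 in KHOS and then 6.53, 6.82 and 7.57 in U-2OS, so the order over the arrays was opposite to that of SCD. Its adjusted p was 0.126 against untransfected cells and 0.283 against nonspecific siRNA. SLC25A1, the mitochondrial citrate carrier, read 6.53, 6.41 and 6.05 in KHOS, with U-2OS at 7.44, 6.49 and 6.58, so the untransfected U-2OS array alone was above the limit. ACLY, which cleaves citrate to acetyl-CoA, differed by at most 0.11 in every comparison. MYLIP, SLC25A1 and ACLY were chosen after their values were seen.

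Other measures moved with the arrays too. All 8 interferon response genes were higher with nonspecific siRNA in KHOS, with a median of 1.80, and their summed log2 level was 84.4, 99.5 and 99.5 in KHOS. In U-2OS 7 of the 8 were below the limit on every array, so differences of the list are not read there, and ISG15, the one above it, was at 10.08, 10.14 and 10.21. The summed level in U-2OS was 39.6, 40.4 and 43.8. All 6 mesenchymal and bone markers were lower with nonspecific siRNA in U-2OS, with a median of -0.41, and their summed level was 60.9, 56.3 and 58.5 there, compared with 60.8, 62.1 and 63.7 in KHOS. RUNX2 at 7.03, 4.39 and 5.68 made up much of that U-2OS difference, and COL1A2 was below the limit throughout. The 3′ minus 5′ signal of the ACTB control was 3.38, 3.63 and 3.48 in U-2OS and 3.87, 3.87 and 3.63 in KHOS. The part of these measures in the lipid gene values was not tested.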

How the data were processed

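Gene expression was measured on 6 arrays, 1 for each line and condition, each of RNA pooled from 3 flasks. The authors normalized the arrays with gcrma in R, whose version is not given in the sources used here, and deposited log2 values. Names came from GEO's platform annotation: 41097 of 54675 probe sets carried a single gene symbol, while 1801 listed more than 1 and were not used to name a gene, and 11777 were unnamed. Probe sets above about 6.6 on at least 1 array were kept (16409), and the brightest stood for its gene (8881 genes).

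Differences were taken within a line. limma 3.58.1 (R 4.3.3) was fitted to all 6 arrays with line as a block and transfection, two-sided, with Benjamini-Hochberg adjustment over 8881 genes, after tests on simulated data. Arrays of the same line were paired through the line. P-values measure only the spread between these arrays. Motifs and tables used Python 3.11.15.

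Members and lists were chosen with earlier results of these data known. The naming rule took members whose brightest probe set was past 0.5 in the same direction in both lines, past limma or past 3 standard deviations. It also took members whose probe sets disagreed in sign by over 0.5, and the 3 highest and lowest between lines. The number of arrays limits the precision. Alternatives covered the prior, filters, probe set summary, size limit, block and each array left out, and not all were run for each result.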

Additional observations from a re-analysis of the deposited data

Results flagged for a closer look

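Some of the differences described above had opposite signs in the 2 lines with a size over 0.25 in each, and no test between lines was made because each value rests on 1 array per condition. LSS in KHOS was 0.26 with nonspecific siRNA against untransfected cells, and in U-2OS it was -0.44. STARD4 in the same comparison was 0.49 in KHOS and -0.50 in U-2OS. IDI1 was -0.35 with CDK11 against nonspecific siRNA in KHOS and 0.32 in U-2OS. The other IDI1 probe set gave -0.22 and -0.20, the same sign in each line, so the opposite signs depend on the probe set. ACAT2 in that comparison was -0.38 in KHOS and 0.40 in U-2OS.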

How the results depend on the processing

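The mean over lines of the median differences kept its direction under the alternatives run for it. These were the filters, the mean of probe sets, centring on the array median and a second quantile normalization. No array was left out for these medians. The mean was between -0.24 and -0.22 for nonspecific siRNA against untransfected cells and between -0.25 and -0.23 for CDK11 siRNA against them. For CDK11 against nonspecific siRNA it was between -0.05 and -0.03. There the lines had opposite signs before any alternative, with medians of -0.12 in KHOS and 0.037 in U-2OS. Counts of small differences depended on the size asked for. Beyond 0.25, a limit chosen after seeing the data, 3, 9 and 8 of 22 genes were lower in KHOS in these comparisons, and 15, 12 and 1 in U-2OS, where 15.4%, 24.9% and 23.1% of all genes were in KHOS and 19.8%, 20.3% and 14.5% in U-2OS. SCD was lower by over 0.5 in both lines with CDK11 siRNA against untransfected cells, and the count became 0 with the mean of probe sets, 0 at 1 log2 unit and 0 at 3 SD. With a limma prior that follows the signal level, 1 member, SCD, passed in that comparison at an adjusted p of 0.0419, which ranged from 0.0419 to 1.0 over the alternatives. Among all genes that prior called 5, 279 and 119 in the 3 comparisons, and a filter on the mean signal called 0, 35 and 15, where 0 passed before. Leaving out each array gave 0 to 0 of the 22 genes in the transfection comparisons and 11 to 14 for U-2OS against KHOS. With no replicate block for the line, 0 of 22 passed in each transfection comparison. Without the U-2OS untransfected array the fitted CDK11 siRNA difference of IDI1 from untransfected cells was 0.02 and that of STARD4 was -0.06. For HMGCS1 it was 0.61 without that array and -0.03 without the KHOS untransfected array. The causes were not tested.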
